A study of Mus musculus with 2 samples.

Results

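The granule exocytosis machinery was examined as 9 genes named by symbol, Sytl3, Rab27a, Rab27b, Unc13d, Stxbp2, Stx3, Stx11, Vamp8 and Snap23. All 9 were present among the 31053 genes of both count matrices. Each was measured by sort and, in cells expressing the basophil protease Mcpt8, along the share of the cell's RNA that came from the protease Prss34. The cells came from bone marrow of FVB mice, as the labels give the strain, with no treatment named, and were sorted for surface E-cadherin, so that every cell of both groups was E-cadherin+. The paper calls the sorted mice wild-type in its text and VaviCre;mTmG, a Cre and reporter genotype, in a figure caption. E-cadherin+cKIT+ cells formed 1 library and E-cadherin+cKIT- cells the other, each 1 sequencing of sorted cells, and no age is given. With 1 library per sort there was no replicate, so no comparison was tested. All intervals are 95% intervals that cover counting error only.

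Basophils store histamine and proteases in cytoplasmic granules and release them when the granule membrane fuses with the plasma membrane. The GTPases Rab27a and Rab27b sit on secretory granules and recruit effectors of the synaptotagmin-like family, to which Sytl3 belongs. Docked granules are primed by Munc13-4, encoded by Unc13d, and fusion is driven by SNARE proteins, with the syntaxins Stx3 and Stx11 and Snap23 on the target membrane and Vamp8 on the vesicle. Munc18-2, encoded by Stxbp2, binds syntaxins and guides the assembly of the SNARE complex. In humans, inherited loss of RAB27A, UNC13D, STXBP2 or STX11 impairs the secretion of cytotoxic granules by lymphocytes.

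After the study's filter the cKIT+ library held 6479 cells with 91108781 unique molecular identifiers (UMIs, the count of captured RNA molecules) and the cKIT- library 3662 cells with 22869169 UMIs. The median kept cell had 13039 UMIs in cKIT+ and 4416.5 in cKIT-, and 10 cell barcodes occurred in both libraries. Levels are given as counts per 1000000 UMIs (CPM), the UMIs of a gene summed over a group of cells and scaled to all UMIs of these cells. Kit, which encodes cKIT, was at 37.1 CPM in cKIT+ and 0.875 CPM in cKIT-, and Cdh1, which encodes E-cadherin, at 62.8 and 193 CPM. A cell was called Mcpt8-positive with at least 3 Mcpt8 UMIs that made up at least 0.1% of its UMIs, which gave 3774 cKIT+ and 2934 cKIT- cells. Of these, 84.6% and 98.2% fell in clusters named basophil-like from marker genes. Mcpt8 and Prss34 are themselves among the 10 basophil markers, so these shares are partly fixed by the choice of cells. Since only the 3' end of each RNA is counted, levels are compared within a gene and not between genes.

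The 9 genes lie on different chromosomes and are protein-coding in the GENCODE M21 annotation of GRCm38. On the plus strand are Snap23 (ENSMUSG00000027287, chr2:120567671-120601255), Stxbp2 (ENSMUSG00000004626, chr8:3630955-3643644), Rab27a (ENSMUSG00000032202, chr9:73044854-73097629) and Sytl3 (ENSMUSG00000041831, chr17:6659093-6738044). On the minus strand are Vamp8 (ENSMUSG00000050732, chr6:72385223-72390703), Stx11 (ENSMUSG00000039232, chr10:12938209-12964298), Unc13d (ENSMUSG00000057948, chr11:116062095-116077961) and Stx3 (ENSMUSG00000041488, chr19:11775118-11819403), and so is Rab27b, whose place is given with its values. An exon of Sytl3 overlaps an exon of Ezr on the opposite strand, and an exon of Rab27a overlaps a processed pseudogene, Gm27186, that is no row of the matrices. The sources used here do not say whether counting used strand. Along Prss34 in cKIT-, where Sytl3 went from 391 CPM at the low end to 63.5 CPM at the high end, Ezr went the other way, from 81.6 to 139 CPM. In cKIT+ Ezr went from 89.0 to 118 CPM over the first 5 bins. Sytl3 was at 6.22 CPM in the lowest bin, fell to 2.12 CPM at 0.25 to 1% and reached 26.5 CPM at 4 to 8%. Both ended higher than they began, so in cKIT+ the courses do not set the overlapping genes apart. Between the sorts, the lowest bin had Ezr at 89.0 CPM in cKIT+ and 81.6 CPM in cKIT-, and Sytl3 at 6.22 and 391 CPM.

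RefSeq promoter windows (GRCm38.p6) were found for 7 of the 9 genes and not for Rab27b and Unc13d. Of their 8 windows, 6 ran into the opening of an annotated transcript of the gene, and the others were not matched to one. The 250 bases before the start are shown for Sytl3, Rab27a and Snap23, whose levels were lower at the high-Prss34 end of the cKIT- sort, and for Stx3, whose level there was within 1.06-fold of that at the low end. They are written 5′ to 3′ on the strand of the gene, from chr17:6658809-6659058 (+), chr9:73044560-73044809 (+, the first of 2 windows), chr2:120567421-120567670 (+) and chr19:11819404-11819653 (-), in that order. Capitals mark matches, on either strand, to GATAA (GATA factors), TGTGGT (RUNX factors), TTGCNNAA (C/EBP factors), CACGTG (the E-box of bHLH factors) or CCGGAA (ETS factors).
Sytl3: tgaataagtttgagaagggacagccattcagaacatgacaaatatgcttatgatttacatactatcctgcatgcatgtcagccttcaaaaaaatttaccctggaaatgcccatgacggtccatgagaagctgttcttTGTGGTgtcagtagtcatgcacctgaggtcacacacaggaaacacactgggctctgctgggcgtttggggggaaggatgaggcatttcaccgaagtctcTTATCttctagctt
Rab27a: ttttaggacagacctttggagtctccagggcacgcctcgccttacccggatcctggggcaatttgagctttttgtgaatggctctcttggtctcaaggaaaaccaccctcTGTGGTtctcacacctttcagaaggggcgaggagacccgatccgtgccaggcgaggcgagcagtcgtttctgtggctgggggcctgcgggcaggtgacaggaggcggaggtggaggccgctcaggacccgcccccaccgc
Snap23: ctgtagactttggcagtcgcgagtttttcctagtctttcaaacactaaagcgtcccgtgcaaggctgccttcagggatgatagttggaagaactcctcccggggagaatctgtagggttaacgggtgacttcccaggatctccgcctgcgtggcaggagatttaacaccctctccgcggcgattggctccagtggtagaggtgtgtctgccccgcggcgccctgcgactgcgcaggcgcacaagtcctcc
Stx3: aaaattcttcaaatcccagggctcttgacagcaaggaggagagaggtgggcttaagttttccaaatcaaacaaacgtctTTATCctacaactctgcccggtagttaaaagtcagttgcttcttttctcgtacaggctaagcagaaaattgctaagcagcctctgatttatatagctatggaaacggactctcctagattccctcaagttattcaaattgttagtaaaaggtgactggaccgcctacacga
The Sytl3 window held 1 match to TGTGGT and 1 to GATAA on the opposite strand, the Rab27a window 1 to TGTGGT, the Stx3 window 1 to GATAA on the opposite strand, and the Snap23 window 0 of the 5 motifs. No matches overlapped in these windows. Of all 32851 windows of this length, 22.6% held GATAA, 14.0% TGTGGT, 9.56% TTGCNNAA, 6.02% CACGTG and 12.03% CCGGAA. The matches are a description of letters only.

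Across all kept cells the cKIT- library carried more of most of the machinery, and Sytl3 differed by far the most of the 9. Of the 8 genes that reached 10 CPM in 1 of the sorts, 5 were at least 2-fold higher in cKIT- (Sytl3, Rab27a, Unc13d, Stx3 and Snap23), where 9.06% of the 8023 genes tested were, and 0 were 2-fold higher in cKIT+, where 7.30% were. The median log2 ratio of cKIT+ over cKIT- was -1.12 over the 8 genes and -0.03 over all genes tested. The 9 genes were chosen with earlier results of these data known. Setting them beside all genes, here and in the comparisons below, is therefore a description. Counted as UMIs per cell in place of CPM, the median of all genes tested moved by 1.17 on the log2 scale toward cKIT+, whose cells are deeper, and the log2 ratios of Stx3 and Snap23 became 0.015 and 0.077. On that scale Rab27b (0.28) and Stxbp2 (0.78) were also higher in cKIT+, and Stx11 (1.04) and Vamp8 (1.26) passed 2-fold there. Rab27a (-0.23) and Unc13d (-0.03) came under 2-fold, and Sytl3 (-3.34) stayed past it.

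The Rab27 group showed both the largest and a modest difference. Sytl3 was at 5.62 CPM (interval 5.14 to 6.13) in cKIT+ and 128 CPM (123 to 133) in cKIT-, 22.8-fold higher in cKIT-. Rab27a was at 22.8 CPM in cKIT+ and 60.2 CPM in cKIT-, 2.65-fold higher (2.47 to 2.83). Rab27b was at 7.38 and 13.7 CPM, a ratio of 1.86 (1.62 to 2.13) that stayed under 2-fold. Each difference exceeded its counting interval.

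Of the priming and SNARE genes, Unc13d was at 42.1 CPM in cKIT+ and 96.7 CPM in cKIT-, 2.30-fold higher (2.18 to 2.42). Stxbp2 was at 72.0 and 94.1 CPM, a ratio of 1.31 (1.25 to 1.37). The target-membrane SNAREs Stx3, at 149 and 332 CPM, and Snap23, at 34.0 and 72.6 CPM, were higher in cKIT- by 2.23-fold (2.17 to 2.29) and 2.13-fold (2.01 to 2.27). Stx3 came under 2-fold where every cell was given the same weight. The vesicle SNARE Vamp8 was nearly level, at 396 CPM in cKIT+ and 374 CPM in cKIT-. Stx11 was at 8.19 and 8.96 CPM, and its ratio of 1.09 had an interval (0.933 to 1.28) that spans equal levels.

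**Figure D1:**
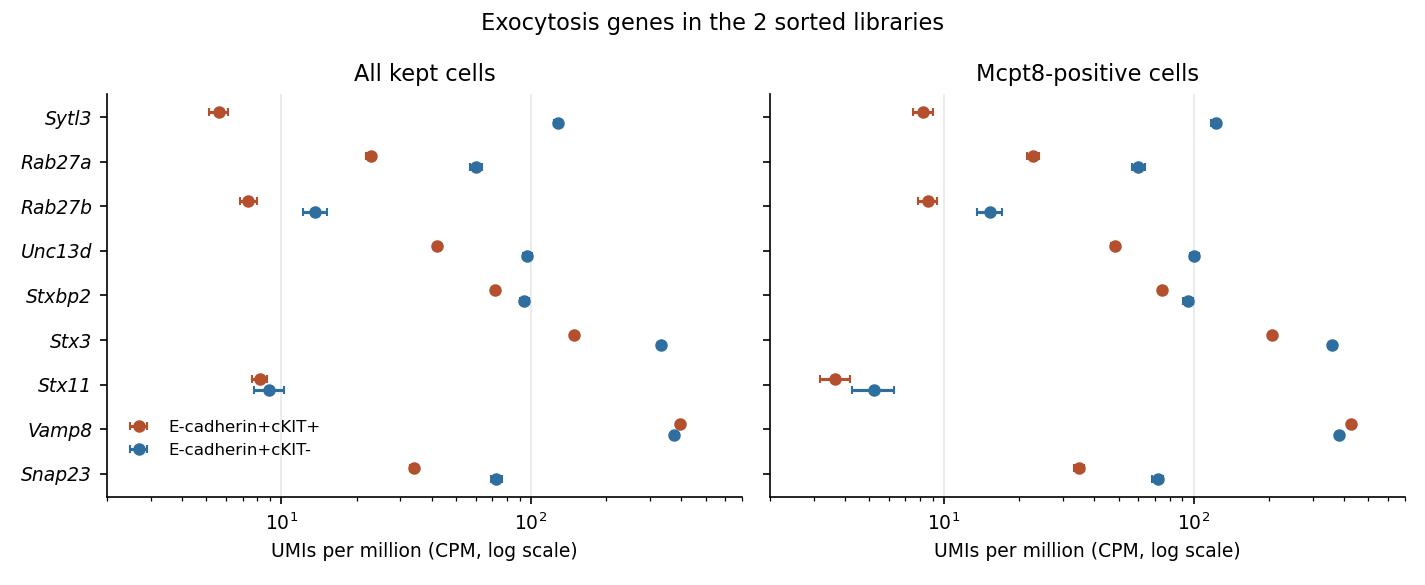
CPM (log axis) of the 9 genes in both sorts, over all kept cells and over Mcpt8-positive cells. Points are 1 library each and bars are 95% Poisson intervals. Sytl3 stands apart, at 5.62 against 128 CPM over all kept cells and 8.26 against 122 CPM over Mcpt8-positive cells, while the points of Vamp8 lie close together.

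Both sorts hold several cell types, so the sorts were compared again within Mcpt8-positive cells. Sytl3, Rab27a and Unc13d differed most here too. Of these cells, 7.87% in cKIT+ and 1.30% in cKIT- fell in eosinophil-like clusters, and the part of this difference in the results was not tested. Here 4 of the 8 genes tested were at least 2-fold higher in cKIT- (Sytl3, Rab27a, Unc13d and Snap23), against 7.03% of 7795 genes, and 0 in cKIT+, against 5.62%. The median log2 ratio was -0.94 over the 8 and -0.03 over all genes tested (on UMIs per cell this median moved by 1.09 toward cKIT+, and Unc13d and Snap23 came to 0.031 and 0.033). On that scale Rab27b (0.26), Stxbp2 (0.74), Stx3 (0.29) and Stx11 (0.57) were also higher in cKIT+, and Vamp8 passed 2-fold there (1.25). Rab27a (-0.31) came under 2-fold, and Sytl3 (-2.80) stayed past it.

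Sytl3 was at 8.26 CPM (7.52 to 9.05) in cKIT+ and 122 CPM (118 to 127) in cKIT- Mcpt8-positive cells, 14.8-fold higher in cKIT- (13.4 to 16.4). Rab27a was 2.64-fold higher (2.44 to 2.86), at 22.8 and 60.1 CPM. Unc13d, at 48.4 and 101 CPM, and Snap23, at 34.6 and 71.9 CPM, were each 2.08-fold higher, and both came under 2-fold where Mcpt8 had to be 0.5% of UMIs, at log2 ratios of -0.91 and -0.94. Stx3, at 205 and 357 CPM, was 1.74-fold higher (1.69 to 1.80), less than over all kept cells. Where 1 Mcpt8 UMI was enough to enter, Stx3 passed 2-fold, at a log2 ratio of -1.16. Rab27b was at 8.60 and 15.2 CPM, Stxbp2 at 74.6 and 94.9 CPM and Stx11 at 3.67 and 5.24 CPM, all higher in cKIT- by less than 2-fold. On CPM, Vamp8 was the 1 gene of the 9 that was higher in cKIT+, at 428 against 382 CPM, 1.12-fold (1.09 to 1.15).

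Within each sort the Mcpt8-positive cells were ordered by Prss34, a basophil granule protease whose share of a cell's UMIs ran from under 0.25% to over 8%. Along this order Sytl3, Rab27a and Unc13d had opposite courses in the sorts on CPM. In cKIT+ each was highest toward the high-Prss34 end, and in cKIT- each was lower there. Sytl3 was highest in the lowest cKIT- bin, and Rab27a (98.8 CPM) and Unc13d (150 CPM) were highest at 1 to 2%. On UMIs per cell, Rab27a and Unc13d were higher in cKIT- cells with 4% Prss34 and more than in those under 1% (log2 ratios 0.61 and 0.86). Rab27b was higher at the high-Prss34 end of both sorts. Stx3 was higher from bin to bin in cKIT+ and stayed in a narrow range in cKIT-, and Vamp8 was level throughout. Equal Prss34 did not pair like cells of the sorts at the low end. In the lowest bin the mature basophil genes Ccl3, Ccl4, Ccl6 and Lilr4b summed to 157 CPM in cKIT+ and 10684 CPM in cKIT-. There 10 mitosis genes summed to 1513 and 40.4 CPM, and 5 granulocyte/monocyte progenitor genes to 8260 and 298 CPM. The part of this in the courses was not tested. The courses are descriptions of 1 library each.

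Sytl3 covered the widest range of the 9. In cKIT- it was at 391 CPM (367 to 416) in the 808 cells under 0.25% Prss34, 268 CPM at 0.25 to 1%, 199 CPM at 1 to 2%, 86.4 CPM at 2 to 4%, 65.1 CPM at 4 to 8% and 63.5 CPM (50.8 to 78.3) at 8% and more. In cKIT+ it was at 6.22 CPM (4.95 to 7.71), 2.12, 3.07, 9.29 and 26.5 CPM (22.8 to 30.7) over the first 5 bins, and 12 cells with 8 Sytl3 UMIs made up the sixth. The sorts thus differed 62.9-fold (50.2 to 79.6) in the lowest bin, 127-fold (81.6 to 206) at 0.25 to 1% and 2.45-fold (2.08 to 2.91) at 4 to 8%.

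The lowest cKIT+ bin was not even in Sytl3. In it, 47 of 950 cells, 4.95%, fell in the 2 clusters, numbered 0 and 4, whose 10 leading genes include the chemokine genes Ccl4 and Ccl6, and they held 74 of the 83 Sytl3 UMIs. Sytl3 took no part in the clustering but is itself among the 10 leading genes of both, so leaving them out removes Sytl3-rich cells by construction. Without the cKIT+ cells of these clusters, an exclusion chosen after the values were seen, the cKIT+ bins ran at 0.682 CPM (0.312 to 1.29), 2.12, 2.50, 8.84 and 25.2 CPM, and all cKIT- cells of the lowest bin were 574-fold (301 to 1258) above the remaining cKIT+ cells.

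Over cells grouped as Prss34-low (under 1%) and Prss34-high (4% and more), the cKIT+ sort had 1642 and 505 cells and the cKIT- sort 1002 and 1360. In cKIT+, 1 of the 8 genes tested was at least 2-fold higher in Prss34-high cells, where 3.41% of 7692 genes were, and 0 in Prss34-low cells, where 3.69% were. In cKIT-, 1 was 2-fold higher in Prss34-high cells, where 13.3% of 7751 genes were, and 1 in Prss34-low cells, where 10.5% were. The counts in cKIT- are close to the background shares, and each count is a single gene. On UMIs per cell the median of all genes tested moved by 1.52 on the log2 scale toward the deeper Prss34-high cells of cKIT-, and there the log2 ratios of Rab27a (0.61), Unc13d (0.86), Snap23 (0.67) and Stxbp2 (1.28) turned positive while that of Sytl3 stayed negative (-0.95). The median log2 ratio of Prss34-high over Prss34-low on CPM over the 8 genes was 0.74 in cKIT+ and -0.45 in cKIT-, and over all genes tested it was -0.04 and -0.09.

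The gene past 2-fold in cKIT+ was Sytl3, at 27.3 CPM in Prss34-high and 4.42 CPM in Prss34-low cells, 6.17-fold higher (4.83 to 7.91). That ratio was 1.84-fold after each cell was thinned to 2000 UMIs. It was 19.5-fold without the cKIT+ cells of clusters 0 and 4, an exclusion that removes Sytl3-rich cells by construction. In cKIT- Sytl3 was at 65.0 CPM in Prss34-high and 362 CPM in Prss34-low cells, 5.57-fold lower (5.10 to 6.08).

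Rab27a followed Sytl3 with smaller differences. In cKIT+ it was at 33.4 CPM in Prss34-high and 16.7 CPM in Prss34-low cells, a ratio of 1.999 (1.69 to 2.36) that lies at the 2-fold limit and is past it in 5 of 14 alternatives. In cKIT- it was at 48.1 and 90.1 CPM, 1.88-fold lower (1.63 to 2.15). By bin it ran from 15.9 to 33.7 CPM over the first 5 bins in cKIT+, and in cKIT- it was at 89.0, 93.6 and 98.8 CPM in the first 3 bins before 68.9, 48.6 and 43.8 CPM.

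Rab27b (ENSMUSG00000024511, chr18:69979131-70141605, minus strand), the other granule Rab, differed from Rab27a in the cKIT- sort. There it was at 17.6 CPM in Prss34-high and 6.21 CPM in Prss34-low cells, 2.83-fold higher (1.81 to 4.67), and it stayed past 2-fold in 13 of 13 alternatives. In cKIT+ it was at 14.2 and 7.21 CPM, a ratio of 1.97 (1.52 to 2.55), past 2-fold in 6 of 14 alternatives. Its lowest cKIT- bin rested on 13 UMIs in 808 cells, 5.05 CPM (2.69 to 8.64).

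Of the priming factors, Unc13d was 1.51-fold higher (1.35 to 1.69) in Prss34-high cells of cKIT+, at 64.4 against 42.7 CPM, and 1.58-fold lower (1.42 to 1.76) in those of cKIT-, at 88.5 against 140 CPM. Stxbp2 had the same signs with ratios near 1, 1.11 (1.01 to 1.23) in cKIT+ and 0.846 (0.752 to 0.952) in cKIT-. Unc13d stayed under 2-fold in every alternative run, and Stxbp2 in all but UMIs per cell in cKIT-.

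The SNARE genes took separate courses. Stx3 was at 147 CPM (140 to 153) in the lowest cKIT+ bin, then at 172, 209 and 237 CPM, and at 292 CPM (279 to 305) at 4 to 8%, while its cKIT- bins lay between 343 and 437 CPM. Snap23 lay between 31.5 and 38.2 CPM in the first 5 cKIT+ bins and went from 108 CPM in the lowest to 67.1 CPM in the highest cKIT- bin, with its highest value, 127 CPM, at 0.25 to 1%. Vamp8 lay between 417 and 437 CPM in the first 5 cKIT+ bins and between 363 and 400 CPM in cKIT-. Stx11 was under 10 CPM in the 11 bins of at least 20 cells, with 0 UMIs in the bin of 12 cells, which allows up to 26.5 CPM, and its lower level in Prss34-high cells, 2.79 against 4.68 CPM in cKIT+ and 4.55 against 7.68 CPM in cKIT-, rested on 19 and 60 UMIs.

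**Figure D2:**
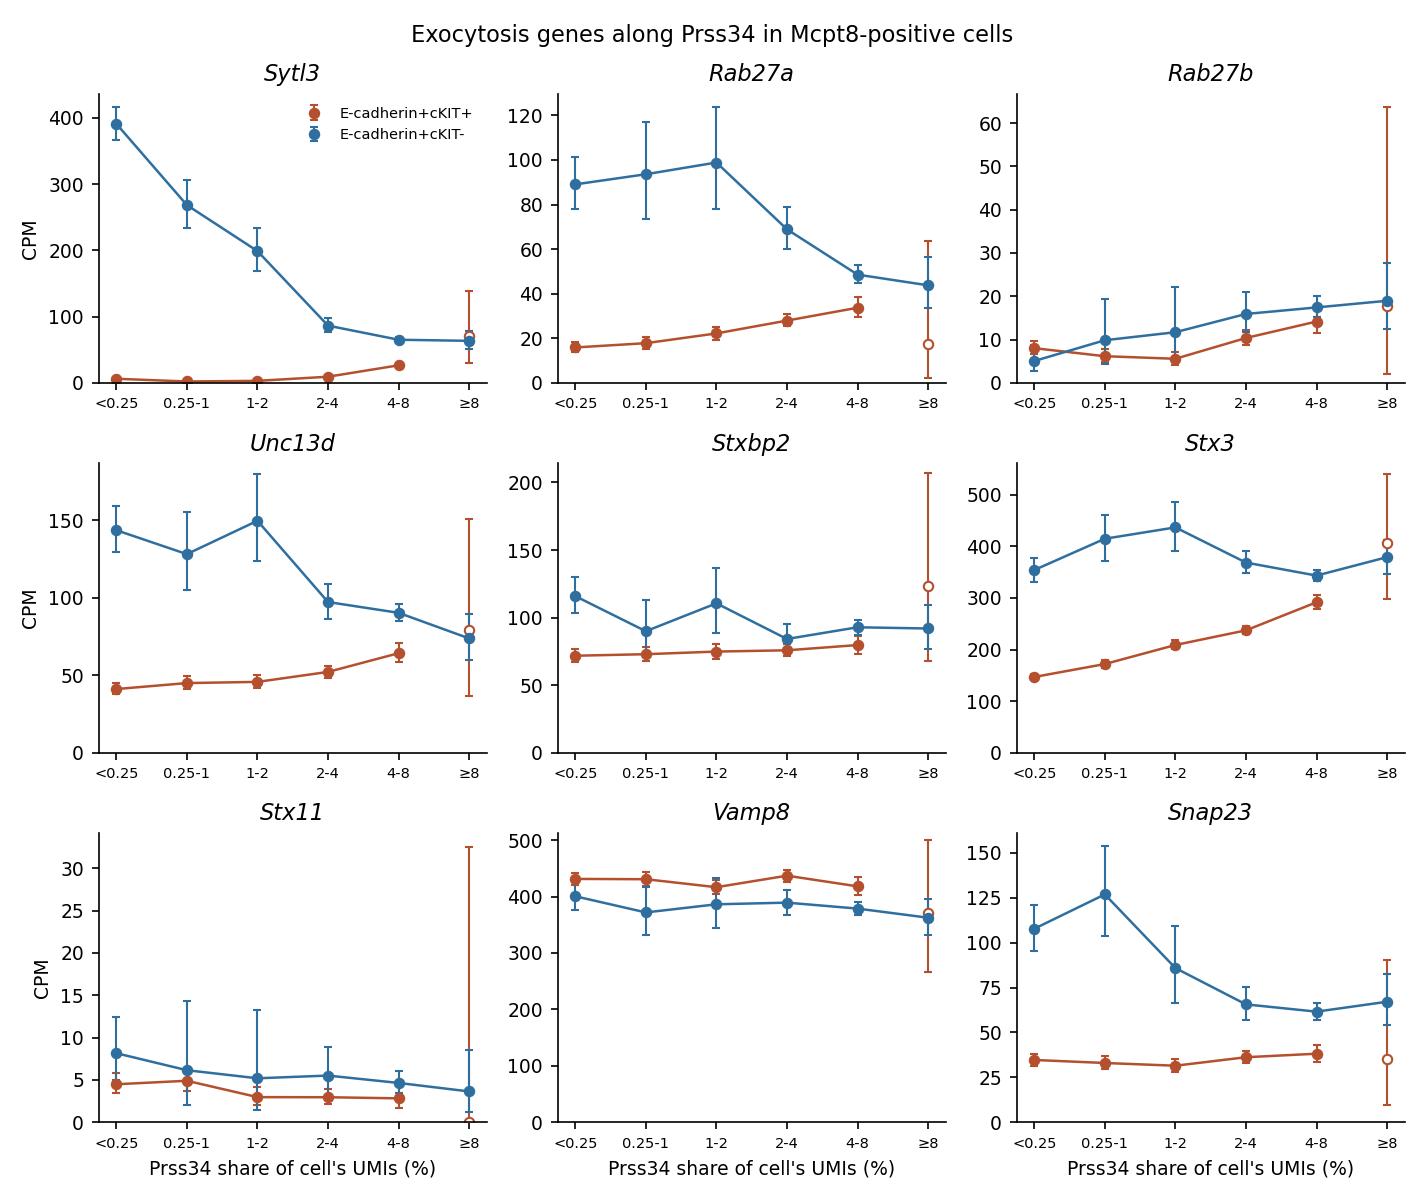
CPM of each gene in Mcpt8-positive cells (linear axes from 0) against the Prss34 share of the cell's UMIs in 6 bins, with 95% Poisson intervals. Open points mark the cKIT+ bin of 12 cells, which is not joined to the line. The sorts are far apart at the low-Prss34 end for Sytl3 (391 against 6.22 CPM) and close at 4 to 8% for Stx3 (343 against 292 CPM), while the Vamp8 lines run level.

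At matched Prss34, which did not pair like cells, Sytl3, Rab27a, Unc13d, Stx3, Snap23 and Stxbp2 differed less between the sorts at 4 to 8% than in the lowest bin. Vamp8 did not. The ratio of cKIT- over cKIT+ went from 5.60 (4.63 to 6.79) in the lowest bin to 1.44 (1.23 to 1.69) at 4 to 8% for Rab27a and from 3.50 to 1.41 for Unc13d. It went from 2.41 to 1.18 for Stx3. For Snap23 it was 3.10 in the lowest bin, 3.84 at 0.25 to 1% and 1.61 at 4 to 8%. For Stxbp2 it was 1.62 in the lowest bin and 1.17 at 4 to 8%, and for Vamp8 0.929 and 0.906. Rab27b took no single direction within wide intervals. Its ratio was 0.630 (0.325 to 1.12) in the lowest bin, which rested on 13 cKIT- UMIs. It was then 1.60, 2.10 and 1.53, and 1.23 (0.960 to 1.59) at 4 to 8%.

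Other genes moved along the same order, and their part in these courses was not tested. The summed level of 10 mitosis genes was 1513 CPM in the lowest and 3480 CPM at 4 to 8% in cKIT+, and 40.4 and 2961 CPM in cKIT-, with 10 of 10 detected in every bin. A list of 4 genes of mature basophils known from earlier results of these data, Ccl3, Ccl4, Ccl6 and Lilr4b, went from 10684 CPM in the lowest to 2643 CPM in the highest cKIT- bin, and from 157 to 532 CPM over the first 5 cKIT+ bins. The 8 neutrophil markers summed to 3112 CPM in the lowest cKIT- bin and 58.5 to 1681 CPM in the others, and to 5422 CPM in the lowest and 276 CPM at 4 to 8% in cKIT+. The 5 granulocyte/monocyte progenitor genes summed to 298 CPM in the lowest and 6615 CPM at 4 to 8% in cKIT-, and to 8260 and 8634 CPM in cKIT+. The 7 eosinophil markers summed to 962 and 159 CPM in cKIT+, and to 25.3 and 77.1 CPM in cKIT-. Median depth was 3190 UMIs in Prss34-low and 9500.5 in Prss34-high cells of cKIT-, and 13487 and 13354 in cKIT+. Basophil-like clusters held 72.1% of Prss34-low and 99.0% of Prss34-high cells of cKIT+, and 99.3% and 99.1% of those of cKIT-. In cells with under 0.05% of UMIs from mitosis genes, the log2 ratio of Prss34-high over Prss34-low was -1.90 for Sytl3 and 1.06 for Rab27b in cKIT-, and 2.29 for Sytl3 in cKIT+, the same signs as over all Mcpt8-positive cells.

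To set the sorts side by side at equal depth, 2000 UMIs were drawn from each cell, and the shallower cells, 345 of cKIT+ and 176 of cKIT-, were dropped. A Sytl3 UMI was then seen in 2.63% of cKIT+ (2.14 to 3.20) and 29.1% of cKIT- (27.4 to 30.8) Mcpt8-positive cells, whose unthinned medians were 14206 and 5616 UMIs. Unthinned, the shares were 8.96% and 51.0%. Within cKIT- the share was 52.0% (48.8 to 55.2) of Prss34-low and 14.8% (12.96 to 16.8) of Prss34-high cells, and within cKIT+ it was 2.34% and 5.96%. In the 50 erythroid-like cells of that depth (median 4914.5 UMIs), a type that should lack Sytl3, it was 0%, which allows a share of up to 7.11%. The cKIT+ shares lie under this limit, so background could not be set apart from expression there by this comparison. Without thinning, Sytl3 in cKIT+ was at 0.221 CPM (0.060 to 0.567) in the 845 cells of eosinophil-like cluster 1. It was at 26.5 CPM (22.8 to 30.7) in Mcpt8-positive cells at 4 to 8% Prss34. How much of either level is background was not tested.

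Other shares at 2000 UMIs mostly followed the levels, and that of Rab27b did not. Stx3 was seen in 34.4% of cKIT+ and 50.3% of cKIT- Mcpt8-positive cells, Unc13d in 9.99% and 21.3%, Snap23 in 7.41% and 15.8% and Rab27a in 4.37% and 13.4%. Vamp8 was seen in 56.0% and 54.7%, and in 24.0% of the erythroid-like cells. Rab27b was seen in 2.20% and 2.44%, with overlapping intervals, while on CPM it was 1.77-fold higher in cKIT- (1.53 to 2.05). Stx11 was seen in 0.896% and 1.26%. A thinned Mcpt8-positive cell held UMIs of 1.31 of the 9 genes on average in cKIT+ and of 2.06 in cKIT-, and at least 4 of the 9 were seen in 1.17% and 11.5% of cells. In Prss34-low cKIT- cells these values were 2.45 genes and 19.1%. Sytl3, which differed most between the sorts, is part of these counts. No such count was made for other genes, so they are a description.

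Cells of both sorts were clustered without the 9 genes and clusters were named from marker genes. Sytl3 was highest in the basophil-like clusters 0 and 4, among whose 10 leading genes it is, so its levels there are a description. They held 1838 cKIT- and 100 cKIT+ cells. In cluster 0 it was at 413 CPM in cKIT- cells and 577 CPM (471 to 701) in the 69 cKIT+ cells, whose median depth was 2702 UMIs against 13039 in the whole sort. In cluster 4 it was at 250 CPM in cKIT- cells. In cluster 12, led by Cd200r4 and Prss34, it was at 64.7 CPM in cKIT- and 49.1 CPM in cKIT+ cells, and in the cKIT+ cells of cluster 8, led by Sox4 and Apoe, at 0.987 CPM.

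Rab27a, Unc13d and Snap23 were also higher in cluster 0 than in other basophil-like clusters of cKIT-, at 106, 142 and 110 CPM. Among the cKIT+ cells of cluster 0, Rab27a was at 90.5 and Unc13d at 102 CPM, and Snap23 at 50.9 CPM. Rab27b had 0 UMIs in those 69 cells, which allows up to 17.0 CPM. Its highest level was in cluster 11, 428 cKIT+ cells led by Gzmb and Cma1 that took no name, with 41.5 CPM. In the same cluster Rab27a was at 8.50 CPM and Sytl3 at 1.59 CPM.

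Outside basophils the syntaxins parted. In the neutrophil-like cluster 16, Stx11 was at 122 CPM in cKIT+ and 205 CPM in cKIT- cells, against 2.76 and 5.28 CPM in basophil-like cells of the same sorts. Stx3 was at 6.85 and 11.8 CPM there, against 203 and 353 CPM in basophil-like cells. Stx11 was at 36.5 CPM and Stx3 at 52.3 CPM in monocyte-like cKIT+ cells. Rab27a and Snap23 were at 102 and 173 CPM in the 58 cKIT- cells of cluster 16, so neither was confined to basophil-like cells. Vamp8 was at 148 CPM or more in all 32 groups of at least 50 cells. Sytl3 had 0 UMIs in monocyte-like cells of both sorts and in macrophage-like and erythroid-like cells of cKIT+.

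**Figure D3:**
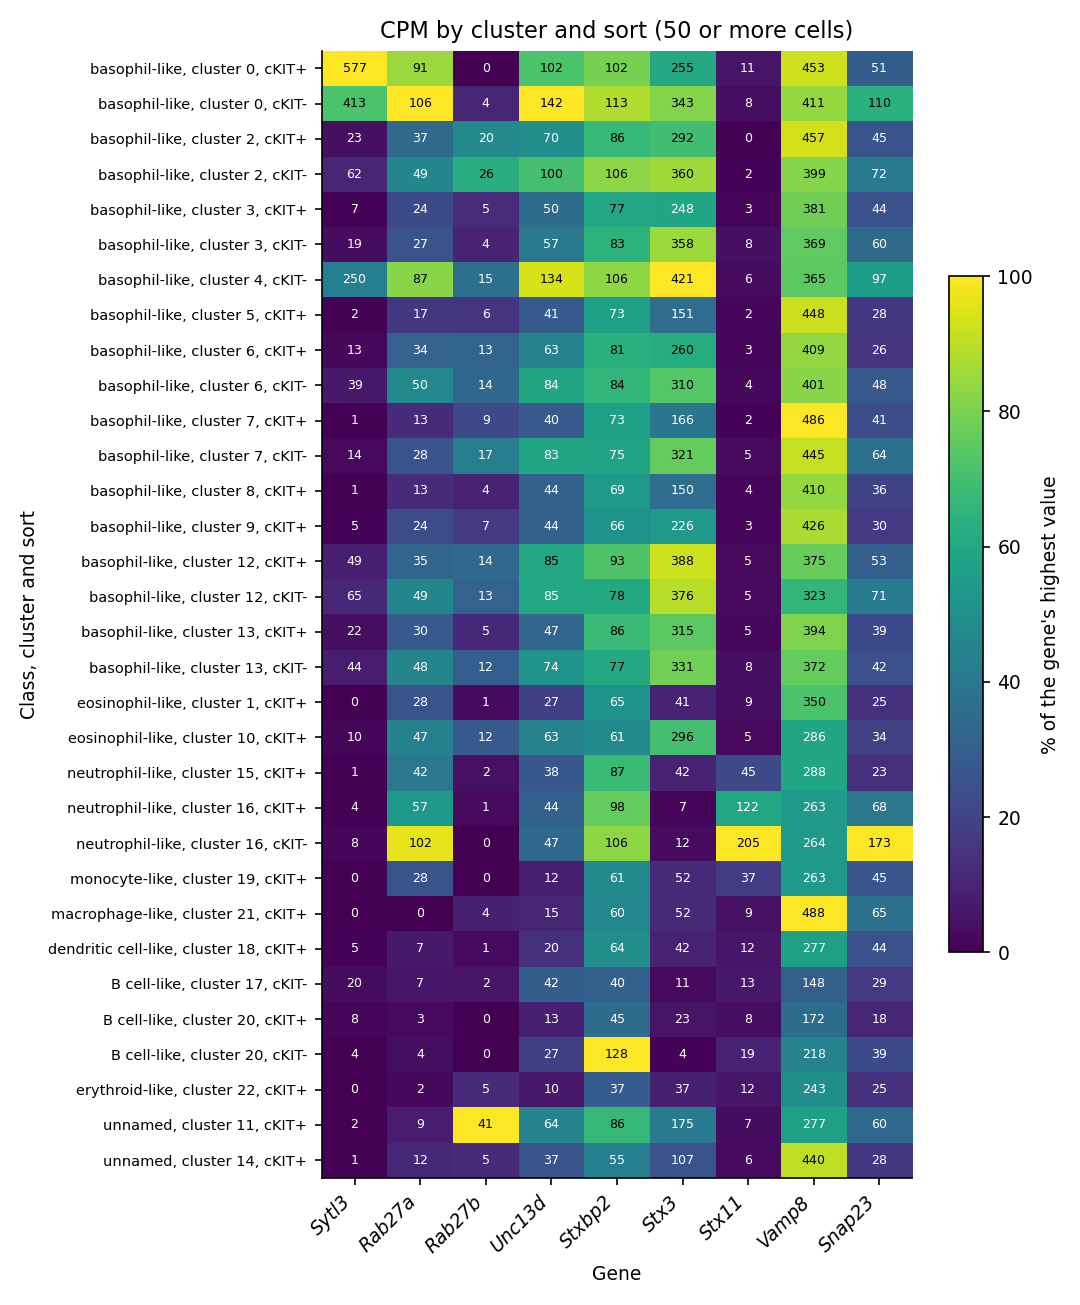
CPM (numbers in the cells) of the 9 genes in each cluster and sort with at least 50 cells. Colour gives each value as a percentage of the highest value of that gene, so colours compare clusters within a column only. Sytl3 peaks in basophil-like clusters 0 and 4, Rab27b in the unnamed cluster 11 (41.5 CPM) and Stx11 in neutrophil-like cluster 16 (205 CPM).

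The 9 genes were set against 80 other genes of regulated secretion, chosen by role with earlier results of these data known. Of these, 45 reached 10 CPM over all kept cells. In that comparison 4 were at least 2-fold higher in cKIT- and 2 in cKIT+, with a median log2 ratio of -0.16. Within Mcpt8-positive cells 4 of 42 were higher in cKIT- and 1 in cKIT+. These shares lie near the background of 7.03% and 5.62%. Of the other syntaxins 10 of 12 were tested, and of the other VAMPs 7 of 8, with 0 past 2-fold in any of the 4 comparisons. Of the 8 synaptotagmins, the 6 complexins and Doc2 proteins and the 6 other priming factors, 0 reached 10 CPM.

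The 4 that were higher in cKIT- were Sytl1 and Sytl2, relatives of Sytl3, and Lyst and Nbeal2, BEACH-domain proteins needed for normal granules. Within Mcpt8-positive cells Sytl1 was at 27.4 CPM in cKIT+ and 57.2 CPM in cKIT-, Sytl2 at 10.8 and 22.5 CPM, Lyst at 24.6 and 79.2 CPM and Nbeal2 at 18.9 and 49.6 CPM. In cKIT-, 41 of the 80 were tested between Prss34-high and Prss34-low cells. There 4 were at least 2-fold higher in Prss34-low cells, against a background of 10.5%, and 1 in Prss34-high cells, against 13.3%, so neither count stands out. The 4 were again Sytl1, Sytl2, Lyst and Nbeal2, with Lyst at 199 against 46.8 CPM, 4.26-fold (3.81 to 4.76). The 1 was Vps45, an SM protein of endosomal traffic, 4.34-fold higher in Prss34-high cells (2.30 to 9.21), with 10 UMIs in the Prss34-low cells. In cKIT+, Nbeal2 was 2.03-fold higher (1.70 to 2.42) in Prss34-high cells.

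Rab38, a Rab of lysosome-related organelles, went against these. It was at 41.2 CPM in cKIT+ and 13.8 CPM in cKIT- Mcpt8-positive cells, 2.99-fold higher in cKIT+ (2.64 to 3.40). Within cKIT+ it was 2.42-fold higher (2.04 to 2.90) in Prss34-low cells, at 51.5 against 21.3 CPM. Snap47, a relative of Snap23, was 2.77-fold higher in cKIT+ over all kept cells, at 10.4 against 3.76 CPM.

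**Figure D4:**
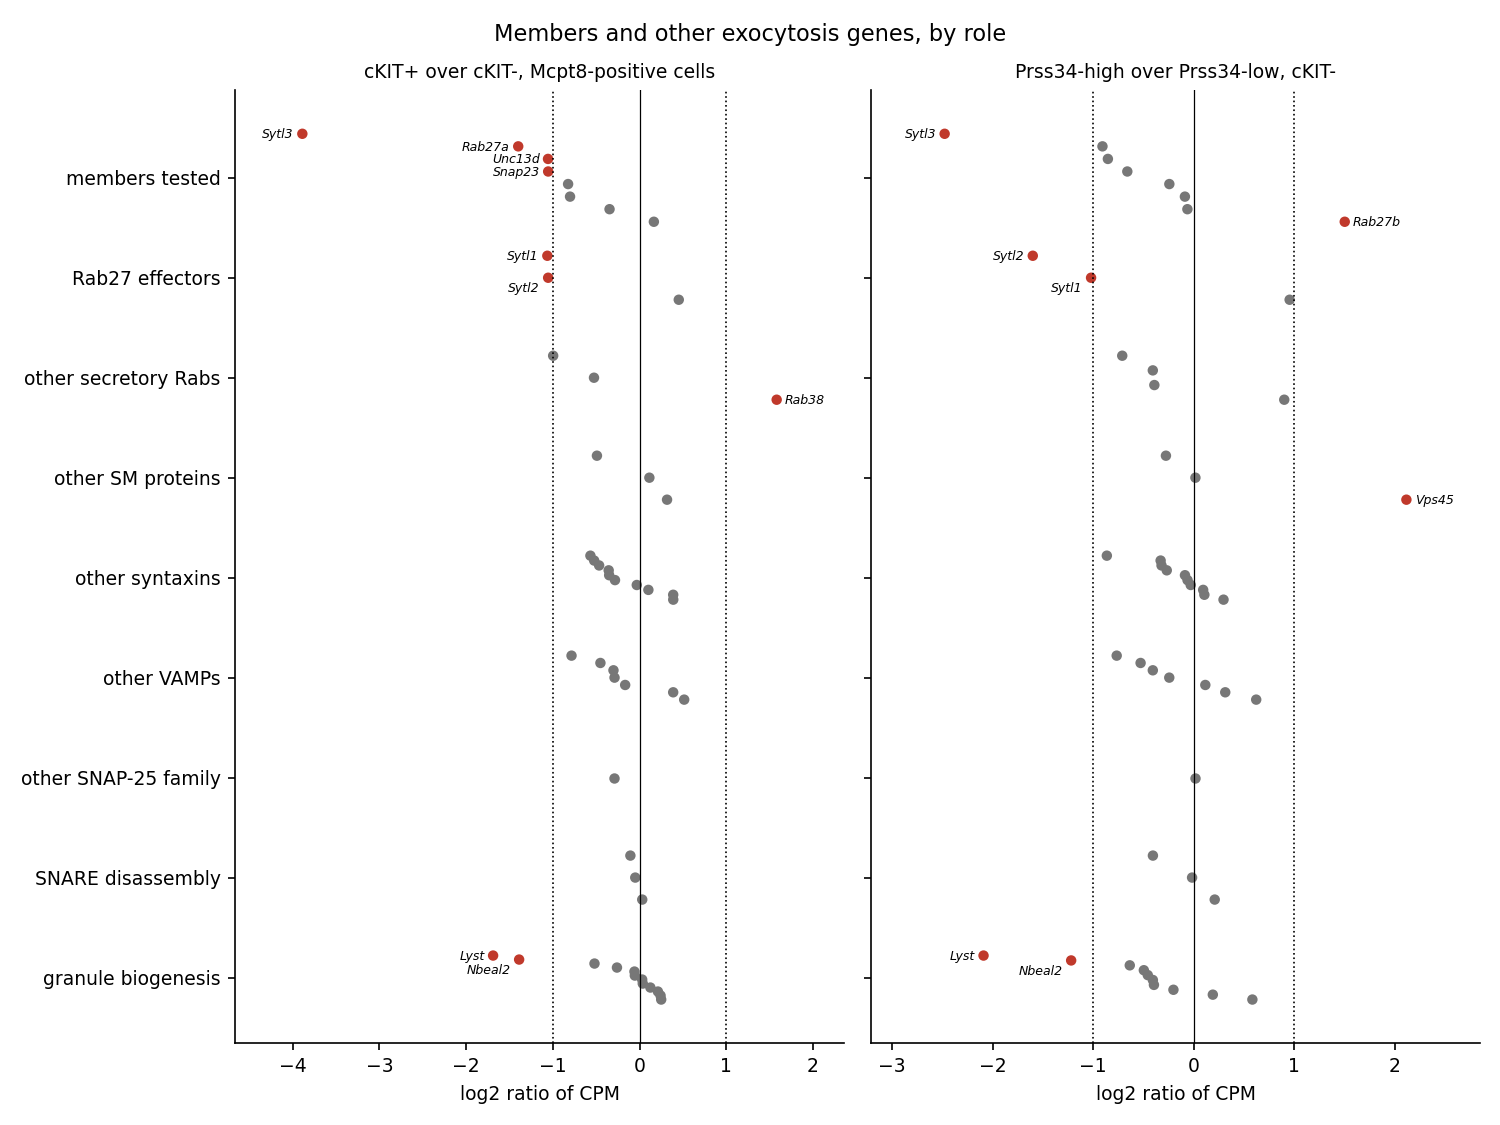
log2 ratio of CPM for the genes tested in each role, for the sorts within Mcpt8-positive cells and for Prss34-high over Prss34-low cells of cKIT-. Each point is 1 gene from 1 library per sort, and genes at least 2-fold apart (dotted lines) are red and named. Sytl3 lies at -3.89 and -2.48, far from the syntaxins and VAMPs, which all lie between the lines.

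The genes whose levels ran most like each member were sought over 11 groups, the Prss34 bins of both sorts with at least 20 cells, by Pearson's r of log2(CPM + 1). The groups share 2 libraries and their depth, so r is a description. Sytl3, whose highest group was 185-fold above its lowest, ran most like Lilr4b (r = 0.996) and Lilrb4a (0.994). Rab27a ran most like Tmem30a (0.994) and Cdh1 (0.990), Unc13d like Fbxo9 (0.995) and Slc3a2 (0.993), and Snap23 like Ttc5 and Hk3 (0.996 each). Stx3 ran most like Sema4a and Ccnd3 (0.991 each). The nearest genes were less alike for Rab27b, Terf1 (0.961) and Vmp1 (0.947), and for Stx11, Zfp36l2 (0.935) and Rasa3 (0.925). Stxbp2 and Vamp8 varied by 1.62-fold and 1.21-fold over the groups, under the 2-fold needed to be ranked.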

How the data were processed

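The authors sorted bone marrow cells that carried E-cadherin by cKIT, from more than 1 mouse per a figure caption of the paper, and made 1 droplet 3' library of each. The deposited values are unnormalized UMI counts for each gene in each cell, which the authors made with Cell Ranger 3.0.2 against mm10, per the labels. The annotation release is not given in the sources used here. The methods name version 3 of the kit and the labels also version 2, and the mouse strain is FVB in the labels but described otherwise in the methods. No printed value depends on either.

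The authors' cell filter was applied to each library. The top and bottom 1% of cells by gene number and the top 1% by UMIs were removed, both counted over genes seen in 40 cells or more. The filter kept 6479 of 6632 cKIT+ and 3662 of 3745 cKIT- cells. Genes under the 40-cell limit were not removed from the counts, so CPM rests on all 31053 genes. Counts were summed over cells and scaled to CPM. A gene was tested for size with at least 10 CPM in 1 of the groups compared, and 2-fold was the limit. Sums carry exact Poisson intervals, ratios intervals from the exact binomial, and shares exact Clopper-Pearson intervals (95%, counting error only). The limit for a count of 0 was 3 counts of the total for CPM and the upper bound of the interval for shares. With 1 library per sort no p-value was computed.

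Clustering used Seurat 5.3.0 (R 4.3.3, with 2000 variable genes less the 9 genes, 15 principal components, resolution 1) and named from fixed marker lists. The name went to the list with the most members among a cluster's 10 leading genes, given 3 or more of its markers on (20 CPM and 10% of the highest cluster). A cluster with no marker among those genes was basophil-like if 5 of the 10 basophil markers were on. Cluster 1, eosinophil-like, also held Elane and Prtn3 among its leading genes, cluster 10 had a median of 1881 UMIs, and the dendritic cell-like cluster was led by Jchain and Igha, so no level of the 9 genes is compared between the sorts within these 3. Scrublet in Scanpy 1.11.5 called 2 and 5 cells, too few to have worked, so doublets were kept. As an alternative, the 344 and 110 cells of highest score were left out. TMM scaling used edgeR 4.0.16. SciPy 1.17.1 gave the intervals. Gene coordinates came from GENCODE, with 30934 of 31053 identifiers matched.

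Named genes are the 9, the sort and ordering genes, every other secretion gene past 2-fold and the 2 most alike genes per member. The 9 genes, the lists and the limits were chosen with earlier results of these data known. Alternatives covered the cell filter, scaling, depth, doublets, minimums, the Mcpt8 and Prss34 limits and clustering resolution.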

Additional observations from a re-analysis of the deposited data

Results flagged for a closer look

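Within 1 library per sort, 4 of the 9 genes had ratios of Prss34-high over Prss34-low Mcpt8-positive cells of opposite sign in the sorts, with the counting intervals of both ratios clear of equal levels. For Sytl3 the log2 ratio was 2.62 in cKIT+ and -2.48 in cKIT-. For Rab27a it was 1.00 in cKIT+ and -0.91 in cKIT-, and for Unc13d 0.59 and -0.66. For Stxbp2 it was 0.15 and -0.24, both small. On UMIs per cell the cKIT- values of Rab27a (0.61), Unc13d (0.86) and Stxbp2 (1.28) turned positive, and of the 4 only Sytl3 (-0.95) kept opposite signs. With 1 library per sort the difference between the sorts was not tested. The share of all genes tested with such opposite signs was not computed, so 4 of 9 cannot be called unusual.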

How the results depend on the processing

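With 1 library per sort, every comparison rests on 2 groups of cells and depth differs between them. No paired analysis was possible because each condition has 1 library. Of 414 ratios of the 9 genes under an alternative, 293 moved by less than their interval, 117 by more, and 4 that were past 2-fold changed sign. The 4 were on UMIs per cell, which keep the difference in depth by construction: Stx3 (0.015) and Snap23 (0.077) over all kept cells, and Unc13d (0.031) and Snap23 (0.033) over Mcpt8-positive cells.

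Genes past 2-fold higher in cKIT+ and in cKIT- numbered 586 and 727 over all kept cells, 4723 and 142 on UMIs per cell, 198 and 371 with at least 50 CPM, and 2500 and 1675 with at least 10 UMIs. Over Mcpt8-positive cells they numbered 438 and 548, 4241 and 97 on UMIs per cell, 136 and 271 at 50 CPM, and 1978 and 1161 at 10 UMIs, and 696 were higher in cKIT+ in cells low in mitosis genes, a set chosen after seeing the data. Genes higher in Prss34-high and in Prss34-low cells of cKIT+ numbered 262 and 284, 128 and 69 at 50 CPM, 600 and 1553 at 10 UMIs, 163 and 173 between the lowest and highest of 3 equal parts by Prss34, and 139 and 147 with limits of 0.5% and 2%. Those higher in Prss34-low numbered 485 after thinning and 502 with 1 Mcpt8 UMI, and those higher in Prss34-high 151 in cells low in mitosis genes. In cKIT- they numbered 1033 and 816, 5662 and 54 on UMIs per cell, 408 and 430 at 50 CPM, and 2030 and 1307 at 10 UMIs, with 673 higher in Prss34-high in cells low in mitosis genes. The cause of the other shifts was not tested.

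The share of Mcpt8-positive cells with a Sytl3 UMI was 1.55% of cKIT+ and 17.1% of cKIT- at 1000 UMIs, and 8.96% and 51.0% unthinned. Sytl3 stayed at least 2-fold higher in cKIT- in 7 of 7 alternatives over all kept cells and 12 of 12 over Mcpt8-positive cells. Its log2 ratio of Prss34-high over Prss34-low was 0.88 in cKIT+ after thinning and -0.95 in cKIT- on UMIs per cell, under 2-fold in both, and past 2-fold in the other 13 and 12 alternatives.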

Other observations

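Of the 728 cKIT- cells that were not Mcpt8-positive, 48.2% fell in basophil-like and 30.9% in B cell-like clusters. Their median depth was 2712 UMIs, against 5412.5 in the Mcpt8-positive cells of that sort. The call needs at least 3 Mcpt8 UMIs, so a shallow cell can miss it. Their Sytl3 level was 173 CPM (interval 157 to 191), against 122 CPM in the Mcpt8-positive cells, and their Stx11 level was 40.1 CPM against 5.24 CPM. In the 2705 cKIT+ cells that were not Mcpt8-positive, Sytl3 was at 1.45 CPM (1.08 to 1.90), Stx3 at 60.5 CPM and Stx11 at 15.3 CPM. Rab27a was alike inside and outside the Mcpt8-positive cells, at 22.8 CPM in both for cKIT+, and at 60.1 and 61.4 CPM for cKIT-.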
